A study of Drosophila melanogaster with 2 samples.

Results

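The 10 genes described here, bcd, cad, hb, Kr, kni, gt, tll, eve, ftz and run, are the maternal, gap and pair-rule genes of a fixed list, out of 13968 protein-coding genes annotated on the chromosome arms. Occupancy of CG1603, a zinc-finger protein, was read from chromatin immunoprecipitation with sequencing in *Drosophila melanogaster* embryos. The embryos were a pool of males and females, 0 to 16 h old, from a transgenic line that stably expresses CG1603 with GFP at its C terminus. The 2 samples of this single group are biological replicates 2 and 3, and neither an untagged line nor control peaks were analysed here. What drives the tagged protein is not stated in the labels, and a whole embryo mixes all cell types and all stages of the collection. For each gene, peaks were taken whose summit lay in the gene body or within 10 kb of it, and this stretch is called the gene's window. The 10 windows held 15 of the 8963 peaks of the authors' reproducible list, which passed a threshold on the irreproducible discovery rate. They held 51 of the 30000 peaks called on the pooled replicates, 48 of the 30000 of replicate 2 and 61 of the 30000 of replicate 3.

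All 10 genes encode transcription factors that lay out the segments along the head-to-tail axis of the embryo. Maternal products such as Bicoid and Caudal form gradients, the gradients switch on gap genes in broad domains, and gap proteins place the stripes of the pair-rule genes. These loci are textbook cases of genes controlled by several separate enhancers, many of them kilobases from the transcription start site (TSS). CG1603 itself has been linked to the transcription of nuclear genes that serve mitochondria, and textbook accounts of the cascade do not include it.

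The summits that carry the results are shown first as reference sequence, 50 bp to either side of the summit on the plus strand of the RefSeq release 6 assembly (dm6 coordinates). The set holds both promoter peaks of the genes themselves, the strongest peak inside a gene of the list, and a distal peak for each of hb, kni, tll and ftz. Capitals mark matches to GAGAG, the GAGA-factor core, or to CGATA, the core of the BEAF-32 site, which reads TATCG on the other strand.
bcd promoter, chr3R:6759641-6759741: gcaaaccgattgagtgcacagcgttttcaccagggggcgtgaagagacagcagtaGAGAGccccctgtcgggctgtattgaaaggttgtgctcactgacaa
cad promoter, chr2L:20770538-20770638: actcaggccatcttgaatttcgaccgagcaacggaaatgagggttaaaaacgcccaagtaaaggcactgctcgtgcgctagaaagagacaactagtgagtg
cad intron, chr2L:20780899-20780999: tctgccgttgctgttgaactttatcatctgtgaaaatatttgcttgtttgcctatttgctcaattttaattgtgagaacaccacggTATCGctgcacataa
hb upstream, chr3R:8704816-8704916: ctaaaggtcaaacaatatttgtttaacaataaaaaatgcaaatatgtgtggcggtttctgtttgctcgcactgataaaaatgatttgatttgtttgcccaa
kni upstream, chr3L:20700746-20700846: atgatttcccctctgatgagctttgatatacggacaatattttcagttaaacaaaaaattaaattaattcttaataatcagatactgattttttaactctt
tll downstream, chr3R:30860276-30860376: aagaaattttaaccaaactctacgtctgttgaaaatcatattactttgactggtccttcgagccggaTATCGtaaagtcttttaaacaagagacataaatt
ftz downstream, chr3R:6870964-6871064: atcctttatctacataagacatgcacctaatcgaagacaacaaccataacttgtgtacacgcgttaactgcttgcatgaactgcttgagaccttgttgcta

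Promoter peaks were found at bcd and cad. These 2 of the 10 genes carried a reproducible summit no more than 500 bp away from a TSS, as did 35.2% of all protein-coding genes, and in a list of 10 such a count is not far from that share. When each summit was given to the gene with the closest coding TSS alone, bcd and cad were again the called genes, and the share over all genes was 27.7%. In the full lists, whose weak peaks reach far below the reproducible threshold, promoter summits were found at bcd, cad and run in the pooled list (47.0% of all genes), at bcd and run in replicate 2 (46.7%), and at bcd, cad, Kr and run in replicate 3 (50.4%). Thus bcd was the single gene with a promoter summit in all 4 lists. No test of the list was made, since 10 chosen genes in 1 group of 2 samples allow none.

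The windows were counted next. A reproducible summit lay in the window of 7 of the 10 genes, those of bcd, cad, hb, kni, tll, eve and ftz, and in the windows of 75.7% of all protein-coding genes. Kr, gt and run had none. Since long genes have long windows, 10 kb to either side of the most upstream TSS was also counted, which again gave 7 of the 10 genes and 71.8% of all genes. Every one of the 10 windows held a summit of the pooled list, of replicate 2 and of replicate 3, as did 85.1%, 87.1% and 86.4% of all gene windows. The number of reproducible summits per window had a median of 1 over the 10 genes and of 2 over all protein-coding genes, although the median gene length was 3337 bp for the former and 2164 bp for the latter. Per 10 kb of window, the medians were 0.461 and 0.871 summits.

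**Figure D1:**
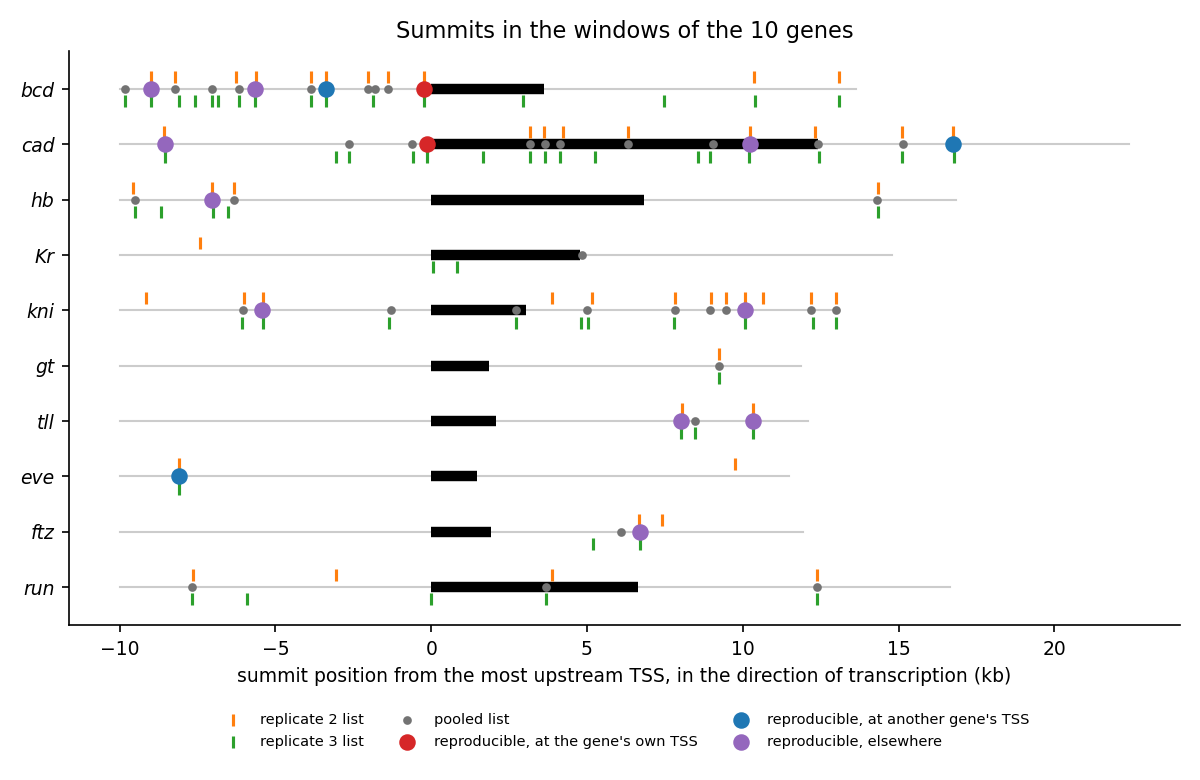
Summits of the 4 peak lists in the windows of the 10 genes, plotted by distance from the most upstream TSS in the direction of transcription (kb); black bars are gene bodies, grey lines the windows, small grey points pooled peaks, ticks replicate peaks and large points reproducible peaks. Red points, at the gene's own TSS, occur at bcd and cad alone, and 3 blue points in the bcd, cad and eve windows lie at TSSs of other genes.

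Of the 15 reproducible summits, 5 lay within 500 bp of a protein-coding TSS, compared with 46.8% of all reproducible summits. These 5 divide into 2 at the genes' own promoters and 3 at promoters of neighbours, namely Ama in the bcd window, Pomp in the cad window and CG12134 in the eve window. By annotation 9 of the 15 summits were intergenic, 2 were in introns of protein-coding genes, 1 in an intron of a non-coding gene and 3 in untranslated regions of Ama or CG12134. A single reproducible summit, in cad, lay inside the body of one of the 10 genes. The matching shares over all reproducible summits and all gene bodies were not counted, so these positions are a description only. By signal, the authors' own height of a peak, whose scale is not stated and which is used here to rank peaks within a list, 10 of the 15 ranked past the middle of the reproducible list (rank 4482), and their median rank was 6609.

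Among the maternal genes, bcd had the clearest promoter peak. The gene (FBgn0000166), which encodes the anterior homeodomain activator laid down as maternal mRNA, occupies positions 6755842 to 6759466 of chromosome 3R, minus strand. Its promoter peak spanned 6759488 to 6759818, with the summit 225 bp upstream of the TSS in intergenic sequence, the first sequence printed above. This peak had signal 561.4 and rank 2150 in the pooled list, signal 282.9 and rank 2276 in replicate 2, and signal 272.4 and rank 2233 in replicate 3, so that its place in the order hardly differed between lists. No TSS of another gene lay within 500 bp of the summit, so by position it is a peak of the bcd promoter alone.

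The other 3 reproducible peaks of the bcd window lay 3388, 5644 and 8989 bp upstream of bcd. The gene on that side is Ama, which encodes a secreted protein of the immunoglobulin superfamily. The one at 3388 bp was in the 5' untranslated region of Ama, 261 bp from an Ama TSS and 235 bp from that of the non-coding gene lncRNA:CR45593. It had rank 2776 in the pooled list, 2830 in replicate 2 and 2792 in replicate 3, and by position it is a peak of the Ama promoter. The one at 5644 bp, rank 6609, was in the 3' untranslated region of Ama and 375 bp from the TSS of lncRNA:CR44930. The one at 8989 bp, rank 6299, lay in an intron of lncRNA:CR42721 and had rank 8110 in replicate 2 but 5308 in replicate 3. In all, the bcd window held 12 pooled, 11 replicate 2 and 16 replicate 3 summits, and all 12 pooled ones were upstream of the TSS.

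For cad, which encodes the posterior homeodomain protein Caudal, the promoter peak was weaker and was listed for a single replicate. The gene (FBgn0000251) spans 20770731 to 20783135 of chromosome 2L, plus strand, with TSSs at 20770731 and 20770894. Its promoter peak, positions 20770423 to 20770752, had its summit 143 bp upstream of the TSS. It had signal 203.9 and rank 6683 in the pooled list and signal 115.1 and rank 6168 in replicate 3. Replicate 2 had no overlapping peak among its 30000, the weakest of which had signal 19.35. That missing entry gives no value for replicate 2 at this site and does not show a signal below 19.35. How much replicate 2 contributed to the pooled signal cannot be read from the lists. With the strongest 8963 peaks of replicate 2 in place of the reproducible list, bcd alone of the 10 genes kept a promoter peak.

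The strongest peaks of the cad window lay elsewhere. One in a cad intron, positions 20780831 to 20781072 with the summit 10055 bp downstream of the nearest cad TSS, had signal 683.1 and rank 1622 in the pooled list, signal 334.5 and rank 1800 in replicate 2, and signal 344.4 and rank 1552 in replicate 3. This was the strongest of the 15 peaks outside promoters, and although it lay within cad the TSS of Pomp was closer, at 6707 bp. The strongest of all 15, at positions 20787283 to 20787702, was 177 bp from the TSS of Pomp, which encodes a proteasome maturation protein, and 16585 bp from cad. It had rank 1210 in the pooled list, 1366 in replicate 2 and 1008 in replicate 3, and by position it is a peak of the Pomp promoter. The remaining peak, rank 8295, lay in an intron of dia, a formin gene upstream of cad, with rank 6568 in replicate 2 and 13494 in replicate 3. Weaker intronic summits of the pooled list, 3482 and 3984 bp downstream of the nearest cad TSS, ranked 9152 and 10717, below the reproducible threshold, and both replicates had them. In all, the cad window held 13 pooled, 9 replicate 2 and 16 replicate 3 summits.

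hb is both a maternal and a gap gene and encodes the zinc-finger protein Hunchback. The gene (FBgn0001180) runs from 8697822 to 8690980 of chromosome 3R, minus strand, with TSSs at 8697822 and 8694600. Neither TSS had a summit within 500 bp in any of the 4 lists. The only reproducible peak of the window, positions 8704701 to 8705030, lay in intergenic sequence 7044 bp upstream of hb, the gene whose TSS was closest. Its signal was 191.5 at rank 7000 in the pooled list, signal 123.8 at rank 5841 in replicate 2 and signal 64.82 at rank 10232 in replicate 3, so the replicates differed in where they placed it. Including it, the window held 4 pooled, 4 replicate 2 and 5 replicate 3 summits, and none was inside the gene. The pooled ones below the reproducible threshold ranked 9371, 15135 and 26202, and the first of these lay beyond the 3' end of hb, 1657 bp from the TSS of CG44227.

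The gap genes showed no reproducible promoter peak. Kr, which encodes the zinc-finger repressor Krüppel of the central domain, sits at 25226611 to 25231394 of chromosome 2R, plus strand (FBgn0001325), within the span of CG9380. Its window held no reproducible peak, 1 pooled, 1 replicate 2 and 2 replicate 3 summits. In replicate 3 a peak of rank 9880 and signal 67.40 had its summit 68 bp downstream of the Kr TSS, in the 5' untranslated region, and no peak of replicate 2 or of the pooled list overlapped it. The single pooled summit, rank 25208, lay 4835 bp downstream of the TSS in an intron of CG9380 and overlapped no peak of a replicate, and the single summit of replicate 2, rank 26511, was 7436 bp upstream. No site in the Kr window was thus listed for both replicates. The reproducible summit closest to the Kr TSS was 26656 bp downstream and 47 bp from the TSS of CG30428.

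kni encodes a zinc-finger protein of the nuclear receptor family that represses in the abdomen. The gene (FBgn0001320) covers 20692330 to 20695378 of chromosome 3L, minus strand, with TSSs at 20695378 and 20694556, and no other annotated gene overlaps its window. Of its 2 reproducible peaks, the one at 20700735 to 20700892, 5418 bp upstream, had signal 262.3 and rank 5288 in the pooled list, signal 122.0 and rank 5918 in replicate 2, and signal 137.3 and rank 5188 in replicate 3. Its place was thus similar in the replicates. The other, at 20685136 to 20685465, was 9255 bp from the nearest kni TSS on the downstream side and had rank 7249 in the pooled list, 5797 in replicate 2 and 10628 in replicate 3. With 11 pooled, 12 replicate 2 and 10 replicate 3 summits the kni window was the fullest among the gap genes in the full lists, yet no summit lay within 500 bp of a kni TSS. The closest in any list, rank 28639 in the pooled list, was 1304 bp upstream. Inside the gene a peak in the 3' untranslated region, rank 15946 in the pooled list and 15054 in replicate 3, had no partner in replicate 2.

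gt and tll had the longest stretches without any summit. gt (FBgn0001150), which encodes a leucine-zipper repressor, maps to 2427113 to 2428967 of chromosome X, minus strand. Its window held no reproducible peak and a single site, 9234 bp from the TSS on the downstream side, at rank 9984 in the pooled list, 11384 in replicate 2 and 9451 in replicate 3. That site was thus found by both replicates but ranked below the reproducible list, and the TSS of CG32797 was closer to it than that of gt. The reproducible summit nearest to the gt TSS lay 15050 bp upstream, had rank 1061, and was 41 bp from the TSS of tko, which encodes a mitochondrial ribosomal protein.

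tll (FBgn0003720), which encodes the nuclear receptor Tailless of the terminal domains, is at 30852315 to 30854400 of chromosome 3R, plus strand. Its 2 reproducible peaks lay 8011 and 10342 bp downstream of the TSS and were the weakest of the 15, with signals 153.8 and 153.7 at ranks 8379 and 8386 in the pooled list. Replicate 2 had them at ranks 7116 and 8431 and replicate 3 at ranks 10215 and 10099, so both fell outside the strongest 8963 of replicate 3. The closest coding TSS to each was that of Cpr100A, a cuticle protein gene outside the window, rather than that of tll.

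The pair-rule genes had no promoter peak of their own in the reproducible list. eve, which encodes the homeodomain protein Even-skipped, is found at 9979319 to 9980795 of chromosome 2R, plus strand (FBgn0000606). The only reproducible peak of its window, positions 9971046 to 9971353, lay 8107 bp upstream of the eve TSS and 69 bp from the TSS of CG12134, in the 5' untranslated region of that gene. It had signal 710.5 and rank 1535 in the pooled list, signal 353.5 and rank 1647 in replicate 2, and signal 365.1 and rank 1420 in replicate 3. By position it is a promoter peak of CG12134. On the other side of eve, replicate 2 had a peak of rank 1228 and signal 425.1 with its summit 86 bp from a TSS of TER94, an AAA ATPase gene, which neither replicate 3 nor the pooled list contained. Between the summits of replicate 2 on either side, at 9971226 and 9989073, neither the pooled list nor a replicate had any further summit. This leaves eve in a stretch of 17.8 kb without a listed summit.

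ftz (FBgn0001077), a homeodomain gene of the Antennapedia complex, extends from 6864324 to 6866244 of chromosome 3R, plus strand. Its reproducible peak, positions 6870849 to 6871178, was intergenic and 6690 bp downstream of the ftz TSS, which was the closest of any gene. The signal was 205.7 at rank 6639 in the pooled list, 130.0 at rank 5576 in replicate 2 and 75.86 at rank 8944 in replicate 3. Each replicate had a further summit in the window without a partner in the other, at position 6871724 in replicate 2 (rank 9452) and 6869529 in replicate 3 (rank 7466).

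run (FBgn0003300), which encodes the founding Runt-domain protein, reaches from 20690670 to 20697321 of chromosome X, plus strand, with TSSs at 20690670 and 20694439. Its window held no reproducible peak and 3 pooled summits at ranks 10856, 11808 and 17436. The weakest of these was 86 bp from the downstream TSS of run, in its 5' untranslated region, with signal 62.61 in the pooled list, signal 21.18 at rank 27474 in replicate 2 and signal 46.86 at rank 13788 in replicate 3. It was thus among the weakest peaks of replicate 2. Replicate 3 also had a summit 1 bp from the upstream TSS, at rank 28101 close to the end of its list and with no partner. The nearest reproducible summit was 31193 bp from the upstream TSS, the farthest of the 10 genes.

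**Figure D2:**
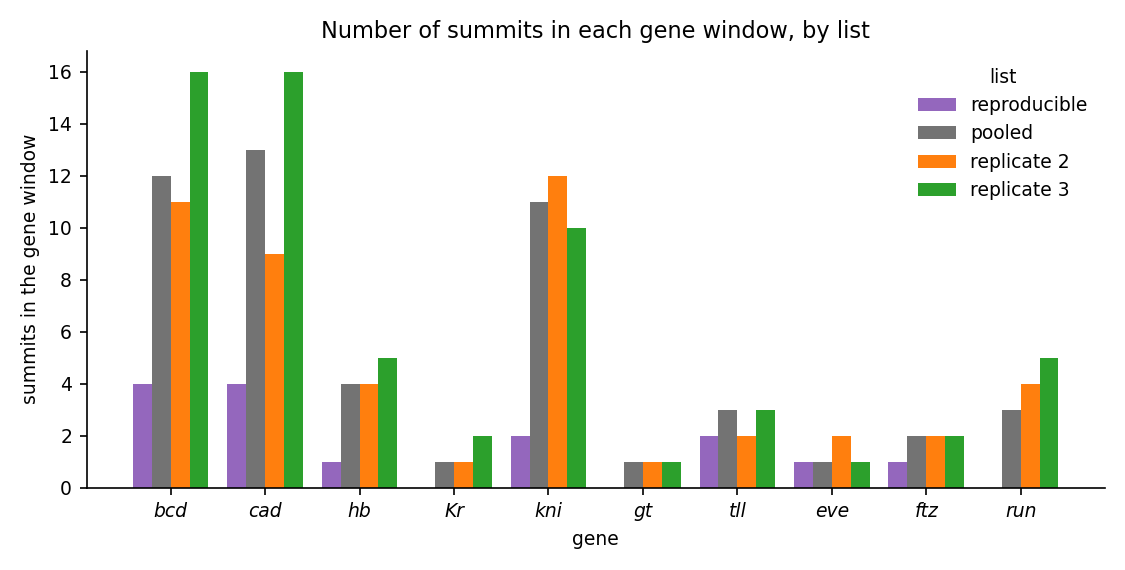
Number of summits in the window of each of the 10 genes, with a bar for each of the 4 peak lists; bars start at 0 and a missing bar is a count of 0. The windows of bcd, cad and kni hold 9 to 16 summits in each full list, while those of Kr, gt, tll, eve and ftz hold 1 to 3.

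The reproducible list passed a threshold on agreement between the replicates and consists of the 8963 strongest pooled peaks. Overlap of its peaks with those of each replicate was therefore largely built in. A peak of each replicate overlapped 14 of the 15 reproducible peaks, the cad promoter being the exception, as against 97.6% of all reproducible peaks. Taking the strongest 8963 peaks of each replicate only, 9 of the 15 had a peak in both, whereas 82.5% of all reproducible peaks did. By replicate, 14 of the 15 had a peak among the strongest 8963 of replicate 2 and 10 among those of replicate 3, beside 91.6% and 90.0% of all reproducible peaks. The 5 that ranked past 8963 in replicate 3 were those of hb and tll, the downstream one of kni and the one in dia in the cad window. Of the 14 with both ranks, 7 ranked better in replicate 2 and 7 in replicate 3. The 5 best-placed peaks, at the Pomp, CG12134, bcd and Ama promoters and in the cad intron, ranked between 1008 and 2830 in every list, and the other 10 between 5188 and 13494 where a peak was found. In the full lists, 37 of the 48 window peaks of replicate 2 and 37 of the 61 of replicate 3 overlapped one of the other replicate, that is 77.1% and 60.7%, beside 69.9% and 70.2% of all 30000 peaks of each.

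**Figure D3:**
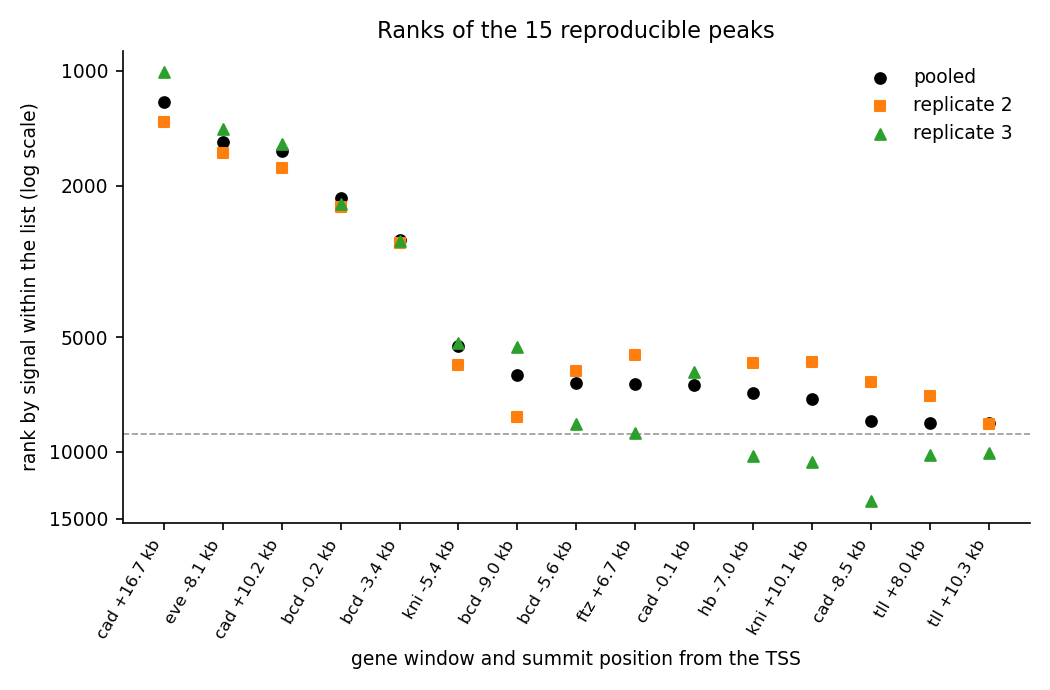
Rank by signal (log axis, strongest at the top) of the 15 reproducible peaks of the windows in the pooled list and in each replicate, ordered by pooled rank; names give the gene window and the summit position from the most upstream TSS. The dashed line is the length of the reproducible list, 8963, and 5 replicate 3 points lie below it.

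Distances to summits, which need no promoter threshold, were also compared. From the most upstream TSS to the closest reproducible summit, the distance was 143 bp for cad and 225 bp for bcd, 5418 bp for kni, 6690 bp for ftz, 7044 bp for hb, 8011 bp for tll and 8107 bp for eve, then 15050 bp for gt, 26656 bp for Kr and 31193 bp for run. The median was 7527 bp over the 10 genes and 3277 bp over all protein-coding genes, and 8 of the 10 lay beyond the latter. For run, 92.1% of all genes had a summit as near or nearer, for Kr 90.1% and for gt 80.3%, while for ftz, hb, tll and eve it was 63.4% to 67.5%. Distances as long as these were thus found at many other genes.

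**Figure D4:**
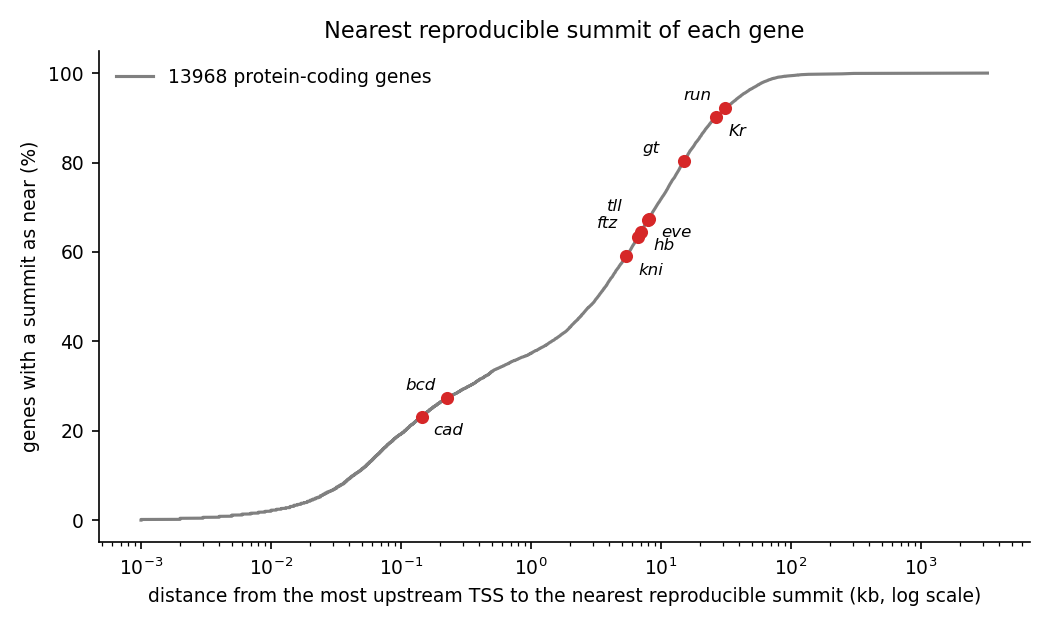
Cumulative share of 13968 protein-coding genes (y, %) by distance from the most upstream TSS to the nearest reproducible summit (x, kb, log axis), with the 10 genes as red points. bcd and cad stand on the promoter-proximal part of the curve, the others beyond 5 kb, and run and Kr farthest out.

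Gene bodies without any summit were counted as well. In hb, gt, tll, eve and ftz, 5 of the 10, neither the pooled list nor a replicate list had a summit between the start and the end of the gene, and 60.8% of all protein-coding genes were empty by the same count. The stretch around the TSS without any summit of these lists was 31.7 kb at tll, 24.3 kb at gt, 20.6 kb at hb, 19.5 kb at ftz and 17.8 kb at eve. Stretches at least as long were found around the TSSs of 16.9%, 23.3%, 27.1%, 28.5% and 31.0% of all genes, so they were long but common. Over the 10 genes the median stretch was 12675 bp, and over all genes 5536 bp. A list capped at 30000 peaks cannot show weaker occupancy within such a stretch. Stronger peaks were missing from single lists as well. The TER94 peak, rank 1228 in replicate 2, was in neither replicate 3 nor the pooled list. The cad promoter peak, rank 6683 in the pooled list, had no partner in replicate 2. These stretches are therefore empty of listed summits, which does not show that they lack occupancy.

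Known motifs were then counted at the summits. In the windows of 101 bp around the 15 summits, on either strand, TATCGATA (the DNA replication-related element), GGTCACACT (Motif 1, the site of M1BP) and CAGGTA (the core of the site of Zelda, an early activator of the embryonic genome) were not found. Over all reproducible summits these letters were in 4.61%, 2.54% and 2.03% of such windows. CGATA, which is contained in TATCGATA, was in 2 of the 15 windows, the cad intron and the tll downstream peak at 8011 bp, and in 23.3% of all. GAGAG was in 1, the bcd promoter, and in 9.86% of all. These counts were near the shares over all summits. The GC content of the 15 windows ranged from 19.8%, at the other tll peak, to 54.5%, at the bcd promoter, with a median of 36.6%, which was also the median over all reproducible windows.

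Patterning genes beyond the 10, called other segmentation genes in this report, were counted the same way. The name covers the whole list, which also holds dl, Tl and zld and is not limited to genes of the head-to-tail axis. Of 37 others, 10 (27.0%) had a promoter summit in the reproducible list and 33 (89.2%) a reproducible summit in the window, beside the 35.2% and 75.7% of all genes given above. By the classes of the list used here, these promoter peaks were found at 5 of 12 maternal, 2 of 8 gap and 3 of 11 segment polarity genes. Of the 6 genes listed as pair-rule, namely hry, odd, prd, opa, sob and drm, 0 had such a peak. The same held for eve, ftz and run. The genes classed as maternal were exu at rank 2059, pum at 3152, stau at 6567, Tl, the Toll receptor gene, at 7762, and nanos at 1510. For nanos, the TSS of CG11779 lay closer to the summit. Those classed as gap, a class that here also takes in genes of the head, were cnc (rank 1415) and oc (rank 6669). Those classed as segment polarity were ci (rank 3084), nkd (rank 6109) and wg (rank 8343). In replicate 2 the peaks of wg, Tl and oc ranked 13021, 10069 and 9595, past the strongest 8963, as against 6900, 6055 and 5180 in replicate 3.

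Strong peaks also lay near segmentation genes without a promoter peak. A peak of rank 51 in the window of trk, a maternal gene of the terminal pathway, had the TSS of Rsf1 as the closest. One of rank 135 was shared by the windows of the neighbouring genes slp1 and slp2, had ranks 131 and 141 in replicates 2 and 3, and was closest to slp2. One of rank 385 in the window of ptc, the Hedgehog receptor gene, was closest to ptc itself. These genes were picked for having the strongest window peaks among the other segmentation genes without a promoter peak. In the windows of the 10 genes the best rank was 1210, at Pomp. The share of all genes with window peaks of such ranks was not counted, so no contrast is drawn.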

How the data were processed

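Per the labels, chromatin of embryos with GFP-tagged CG1603 was sonicated to 200 to 800 bp. The description names an anti-GFP antibody, the antibody field CG1603. Per the deposited description files, replicate and pooled peaks came from alignments with a control, and the reproducible peaks from these 3 lists. Aligner and peak caller: not given in the sources used here. The authors' deposited signal has no stated scale, and their deposited −log10 q values were not used. The reproducible peaks were the 8963 strongest pooled ones. Peak lists give no read depth, and hence no interval is given.

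Genes came from Ensembl release 115 (BDGP 6.54) on dm6, and RefSeq gave all 10 the same span. Promoter summits lay within 500 bp of a TSS of a protein-coding transcript, and overlap meant at least 1 shared bp. The genes nos and h are annotated as nanos and hry. Besides the 10, the rule named genes at whose TSS a window peak lay, other segmentation genes with promoter peaks, and up to 4 more by their strongest window peak. Further neighbours (tko, CG30428, Cpr100A, TER94, dia, CG44227, CG32797, CG9380, Rsf1 and the non-coding genes) were named after their values were seen. Members and lists were chosen with earlier results of these data known. Python 3.11.15, NumPy 2.4.6 and pandas 2.3.3 were used. The counting was tested on simulated data. With 1 group, no test was made.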

Additional observations from a re-analysis of the deposited data

How the results depend on the processing

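Of 50 alternative counts, 37 stayed within 1.5 times the reported count. With the reproducible peaks above the middle of their list only, 1 of the 10 genes had a promoter peak, 3 had a window peak, 5 peaks lay in the windows, and 5 other segmentation genes had a promoter peak, fewer by construction. With the full pooled list the windows held 51 peaks and 23 other segmentation genes had a promoter peak, more by construction. Leaving out a replicate gave 1 gene of the 10 (without replicate 3) or 2 (without replicate 2) with a promoter peak. Windows of 5 kb beyond the gene held 6 peaks at 3 genes, and windows of 20 kb held 30 peaks. Shares over all genes were not counted with other window sizes, fewer reproducible peaks or a replicate left out. The 10 genes can therefore not be compared with all genes at these settings. Among the strongest 8963 peaks of each replicate, 9 of the 15 peaks were found in both. CGATA was in 1 of the 15 windows when 25 bp to either side of the summit were read, and in 13.7% of all reproducible windows. With 100 bp to either side, GAGAG was in 3 of the 15 and in 22.6% of all. A shorter and a longer promoter distance, the most upstream TSS only and any overlap of the peak with the promoter each gave the same 2 of 10 as reported. Both samples are biological replicates per the labels, and 2 of them allow no estimate of the spread for single genes. Peak lists hold no depth, and a site missing from a list cannot be told from an empty one. This holds below the cap of 30000 peaks and, as at TER94 and the cad promoter, also for sites that rank well in another list. No paired analysis was possible because there is 1 group.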

Other observations

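A repeated 8-letter sequence was noticed when the summit sequences were read, so the counts below were made after it had been seen and are a description. The reproducible peak 8989 bp upstream of bcd and the one downstream of ftz, 103 kb apart in the Antennapedia complex, both hold ACTGCTTG on either strand more than a single time, with 3 and 2 copies within 50 bp of the summit. None of the other 13 windows held a copy.

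The bcd window reads as follows on the plus strand, with no motif of the report to mark in capitals, and the ftz window is printed in the report above as ftz downstream.
bcd upstream, chr3R:6768405-6768505: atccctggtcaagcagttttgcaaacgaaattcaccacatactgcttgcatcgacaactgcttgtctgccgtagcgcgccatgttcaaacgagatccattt

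Of all 8963 reproducible summit windows of 101 bp, 81 (0.904%) held ACTGCTTG and 14 (0.156%) held at least 2 copies. Of 17926 windows of the same width centred 500 bp to either side of those summits, 52 (0.290%) held it and 1 (0.00558%) held at least 2 copies. The bcd and ftz peaks are thus 2 of 14 such windows. Which protein, if any, reads this sequence was not tested.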
